A study of Drosophila melanogaster with 33 samples.

Results

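The first and the last stage of a time course of midgut metamorphosis were compared: midguts taken 12 h after puparium formation (12 h APF), when the animal is a prepupa, and midguts of larvae taken 18 h before it (18 h BPF). The arrays were chosen by their titles alone, which gave 3 arrays at 12 h APF and 3 at 18 h BPF, or 6 of the 33 arrays in the series. All animals were Drosophila melanogaster of the wild-type strain Canton S, with no transgene, mutation or treatment at either stage. The labels give a stage as hours from puparium formation and say that the hybridizations of a stage used independent samples; feeding was not recorded in them, and how many animals made up a sample is not stated there. On each array amplified RNA of the stage was labelled with Cy5 and set against a common midgut pool labelled with Cy3, to which 10 of the 11 stages contributed, both of those compared here among them.

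The larval midgut is a single layer of large polyploid enterocytes that secrete digestive enzymes into the lumen and are shielded from it by the peritrophic matrix, a sheet of chitin and chitin-binding proteins. At the end of larval life the animal stops feeding, and pulses of the steroid hormone ecdysone start metamorphosis. The larval epithelium then dies and is shed into the lumen, while diploid progenitors that lay among the larval cells multiply and form a new epithelium around it. The comparison asks which transcripts differ once that exchange is under way, and leaves out what rose and fell again in between.

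Values are log2 ratios of stage over pool, so 1 unit is a 2-fold difference. A transcript made at a single one of 10 equally mixed stages would reach 3.32, so high values are bounded by the make-up of the pool and low values are not. Single arrays held 9236 to 13895 values at 12 h APF and 9780 to 13966 at 18 h BPF. With 3 arrays at each stage, their number limits the precision. Across probes, arrays of the same stage correlated at 0.692 to 0.812 and arrays of different stages at -0.334 to -0.0645. Of the 9 pairs across stages, 2 lay below -0.3 (array a of 12 h APF with array a of 18 h BPF at -0.334, and array c with array a at -0.310). The direction of every array was kept, because the labels state the same dyes for all. That the ratios are stage over pool was worked out from the values, as described under processing. Both a arrays had the widest spread over the 6863 probes measured on all 6 arrays, with an SD of 0.832 at 12 h APF and 0.870 at 18 h BPF, against 0.570 to 0.708 on the other 4 arrays. The p-values measure the spread between samples of the same stage, estimated over all 33 arrays of the series.

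At 12 h APF 1174 probes were higher and 1029 were lower than at 18 h BPF, out of 12704 probes with at least 2 values at both stages (limma, Benjamini-Hochberg adjusted p under 0.05). That is 17.3% of the probes tested, 9.24% higher and 8.1% lower. On 2122 of the 2203 called probes all arrays of one stage lay on one side of all arrays of the other. The counts of higher and lower probes were close, and so were their median changes (1.20 and -1.19). The numbers of very large changes were not. At least 2-fold differences were found for 760 higher and 606 lower probes, at least 16-fold ones for 30 higher and 116 lower probes, and at least 64-fold ones for 6 higher and 29 lower probes. The changes ran from -7.71 to 6.65 on the log2 scale, with a median of -0.03 over all probes tested. In the plot of both stage means this shows as a tail of probes at the lower right, which were near the upper bound at 18 h BPF and far below the pool at 12 h APF. Without both a arrays 726 probes were higher and 595 lower. Counted by gene, with 1 probe for each, 1695 of 9045 genes were called (18.7%), 868 higher (9.6%) and 827 lower (9.14%). These last shares are the background for the gene groups described below. In bulk tissue fewer cells of a type and less RNA per cell cannot be told apart, and this holds for every group that follows.

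**Figure D1:**
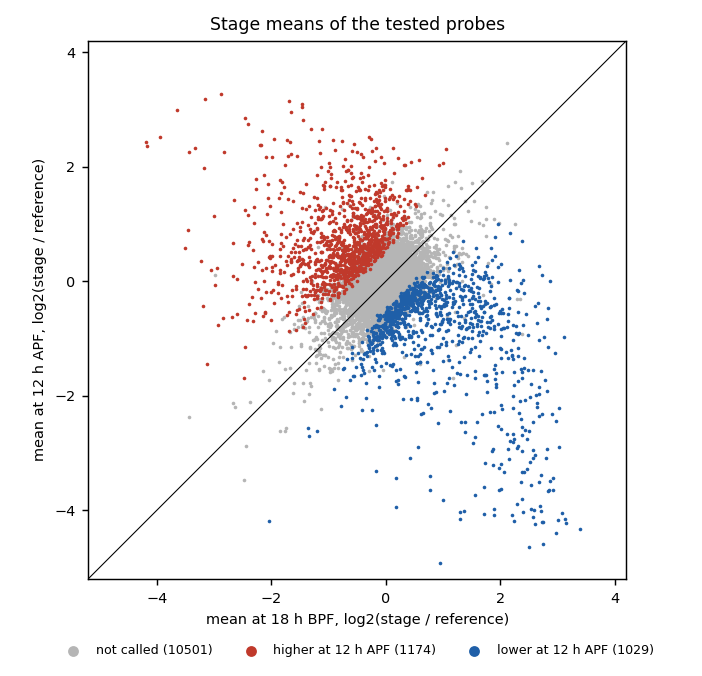
Mean log2 ratio to the midgut pool at 12 h APF (vertical axis) against that at 18 h BPF (horizontal axis) for the 12704 probes tested. Red points are the 1174 probes called higher at 12 h APF, blue points the 1029 called lower, grey points the rest, and the line marks equal means. More blue than red points lie at least 16-fold from equal means (116 against 30).

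The largest falls were led by CG6839, CG3819 and serine proteases of the Jonah family. CG6839, a gene related to secreted nucleases, stood at -4.53, -3.57 and -4.86 on arrays a, b and c of 12 h APF, against 3.58, 3.60 and 2.98 at 18 h BPF. The stages were far apart, and the 18 h BPF arrays were near the bound set by the pool. The gene fell by 7.71 ± 0.49 on the log2 scale (moderated SE), a 209-fold difference (adjusted p = 1.94e-12). Its relative CG3819 stood at -4.53, -3.70 and -4.43 at 12 h APF, against 3.22, 3.50 and 2.72 at 18 h BPF, and fell by 7.37 ± 0.41. CG8664 (-7.33 ± 0.81), CG6933 (-7.12 ± 0.46), CG33307 (-6.94 ± 0.56) and CG33128 (-6.73 ± 0.72) completed the 12 largest falls beside 6 proteases. Of the other 3 probes for CG33128 only 1 was called lower (-2.19), and 2 were near 0 (-0.24 and -0.04), so its fall rests on the probe used. At 12 h APF array b was the least low of the 3 arrays in most of these genes, and array a the lowest, as the plot of the largest changes shows.

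Among the rises CG7997, CG15169, Cht8 and CG11570 exceeded 64-fold. CG7997 stood at 3.26, 1.84 and 3.89 at 12 h APF, against -4.33, -3.52 and -3.11 at 18 h BPF. All its 12 h APF arrays were high and all its 18 h BPF arrays low, a rise of 6.65 ± 0.60 (adjusted p = 1.2e-09). CG11570 stood at 3.56, 2.28 and 3.95 at 12 h APF, against -4.08, -2.21 and -2.33 at 18 h BPF (6.13 ± 0.46). CG15169 rose by 6.46 ± 0.43, and CG16758 by 5.71 ± 0.43. The other 3 probes for CG16758 gave 5.65 to 6.62. Spn27A, a serpin that restrains the Toll and melanization cascades, rose by 5.15 ± 0.47. Transporters were among the 12 largest rises too: CG7888, of the amino acid carrier family SLC36, by 5.09 ± 0.45, and the organic ion carrier gene SLC22A by 4.51 ± 0.46. CG5810 and CG14244 rose by 4.62 and 4.56, and Fpgs1, with 2 arrays at each stage, by 4.43.

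**Figure D2:**
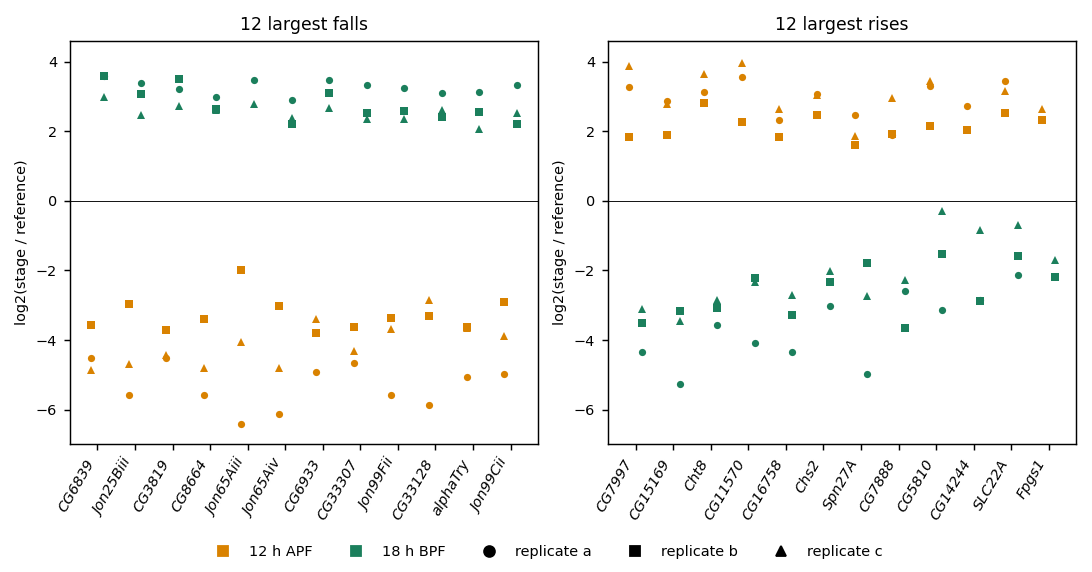
Log2 ratio to the midgut pool on each array for the 12 genes with the largest falls (left) and the 12 with the largest rises (right) at 12 h APF. Orange marks are 12 h APF and green marks 18 h BPF; circles, squares and triangles are replicates a, b and c. Only genes whose stages do not overlap were eligible. In all but CG7997 and Cht8 the arrays of the lower stage spread more than those of the higher one.

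Digestive serine proteases were the group with the most uniform loss. The list held the Jonah proteases (named Jon with their map position), the trypsins and the Ser genes, of which 27 were tested and 26 fell at 12 h APF, with none higher, where 9.14% of all genes were lower. The median change was -5.87. Jon25Biii stood at -5.57, -2.96 and -4.68 at 12 h APF, against 3.40, 3.07 and 2.47 at 18 h BPF. It was abundant against the pool on every larval array and scarce on every prepupal one, and fell by 7.38 ± 0.55 (167-fold, adjusted p = 5.28e-11). alphaTry, a trypsin, stood at -5.05, -3.63 and -3.65 at 12 h APF, against 3.11, 2.54 and 2.07 at 18 h BPF, and fell by 6.69 ± 0.48 (103-fold). Of the 15 Jonah genes 14 fell, from Jon99Ci (-4.52) to Jon25Biii. The trypsins ran from lambdaTry (-2.71) and kappaTry (-3.44) to betaTry (-6.35) and alphaTry. Ser6, Ser7 and Ser12 fell less, by 2.61, 2.13 and 1.51. The remaining gene, Jon66Ci, averaged -1.38 ± 2.36 at 12 h APF and 1.09 ± 1.61 at 18 h BPF (SD, n = 3 each), and its arrays were too scattered for a call (adjusted p = 0.201). These genes form families of close copies, and probes may not separate their members. The median member ran from 2.49 at 18 h BPF through 1.35 at 4 h BPF, -0.96 at puparium formation and -2.38 at 2 h APF to -4.03 at 6 h APF and -3.51 at 12 h APF. Most of the fall thus lay before 3 h APF.

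Other digestive enzymes fell with them, though with exceptions. Of 10 exopeptidases tested 5 fell and none was higher. The metallocarboxypeptidase gene CG17633 led with -6.25, -2.45 and -2.23 at 12 h APF, against 3.58, 2.71 and 2.47 at 18 h BPF (-6.57 ± 0.92), followed by CG8560 (-5.39 ± 0.63), CG14820 (-2.62 ± 0.36) and CG8562 (-2.60 ± 0.40). Of 39 carbohydrases, lipases and lysozymes 25 fell and 5 rose. Among those that fell were the lipase genes CG6283 (-5.88 ± 0.67), CG6271 (-5.45 ± 0.75) and mag (-5.64 ± 0.62), whose product Magro digests dietary fat, and Amy-d (-5.19 ± 1.29), an alpha-amylase. The lysozyme genes LysB, LysD, LysE, LysP and LysS fell by 1.62 to 3.23. Of 8 maltase genes 4 fell, by 1.08 to 2.33. The count of 25 was less stable than that of the proteases: it was 16 without array a of 18 h BPF, 15 without array c of 18 h BPF, 16 without array b of 12 h APF, 13 without both a arrays, and 9 where values on all 6 arrays were required, which left fewer genes.

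The 5 carbohydrase and lysozyme genes that rose went against most of their list. Where in the cell or gut their products act was not measured here. tobi, an alpha-glucosidase gene that responds to diet and insulin signals, stood at 1.88, 1.82 and 1.42 at 12 h APF, against -2.26, -2.11 and -1.82 at 18 h BPF. The stages did not overlap, and the rise was 3.76 ± 0.32 (13.6-fold, adjusted p = 3.63e-10). The maltase gene Mal-A2 stood at 2.58, 2.33 and 2.65 at 12 h APF, against -0.02, -0.45 and -0.40 at 18 h BPF (2.81 ± 0.38). Gal, a beta-galactosidase, rose by 2.75 ± 0.32, the alpha-mannosidase gene LManII by 0.98, and the lysozyme gene LysX by 1.75 ± 0.21, on 2 arrays of each stage. Both tobi and Mal-A2 were lowest at puparium formation (-4.15 and -3.25) and highest at 12 h APF; the ratio at 12 h APF was above the larval one.

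Among the peritrophic matrix and chitin genes 8 of 31 tested fell and 5 rose. Those that fell include chitin-binding and mucin-like proteins: CG17826 (-6.36 ± 0.55), Peritrophin-15a (-5.70 ± 0.59), obst-J (-5.29 ± 0.59) and Muc55B (-5.13 ± 0.61). Peritrophin-15a stood at -3.96, -2.81 and -3.21 at 12 h APF, against 2.89, 2.32 and 1.92 at 18 h BPF. Cda9, of the chitin deacetylase family, fell as well, by 3.76. Of the 5 that rose, 4 make or cut chitin, and CG14645 (1.15) was the other. Chs2, the chitin synthase of the midgut, stood at 3.08, 2.46 and 3.03 at 12 h APF, against -3.03, -2.34 and -2.02 at 18 h BPF. Every array at 12 h APF was close to the upper bound, and the rise was 5.32 ± 0.32 (adjusted p = 4.44e-13). Cht8, a chitinase, stood at 3.13, 2.80 and 3.64 at 12 h APF, against -3.57, -3.08 and -2.85 at 18 h BPF, and rose by 6.36 ± 0.69 (82.0-fold). The chitinases Cht4 and Cht7 rose by 1.73 ± 0.42 and 1.64 ± 0.43, and Cht4 was no longer called without array a of 18 h BPF (1.19). Chs2 climbed in steps from 2 h APF on, whereas Cht8 stayed between -4.52 and -3.17 until 8 h APF and then reached 1.51 at 10 h and 3.19 at 12 h APF.

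Relatives of secreted nucleases also went both ways. Beside CG6839 and CG3819 CG14120 fell by 2.62 ± 0.35. CG14118 stood at 2.05, 2.36 and 2.14 at 12 h APF, against -1.87, -1.48 and -1.77 at 18 h BPF, and rose by 3.89 ± 0.30. Sid, a DNase induced by stress, rose by 3.25 ± 0.39, and 2 of the 7 genes tested were not called.

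**Figure D3:**
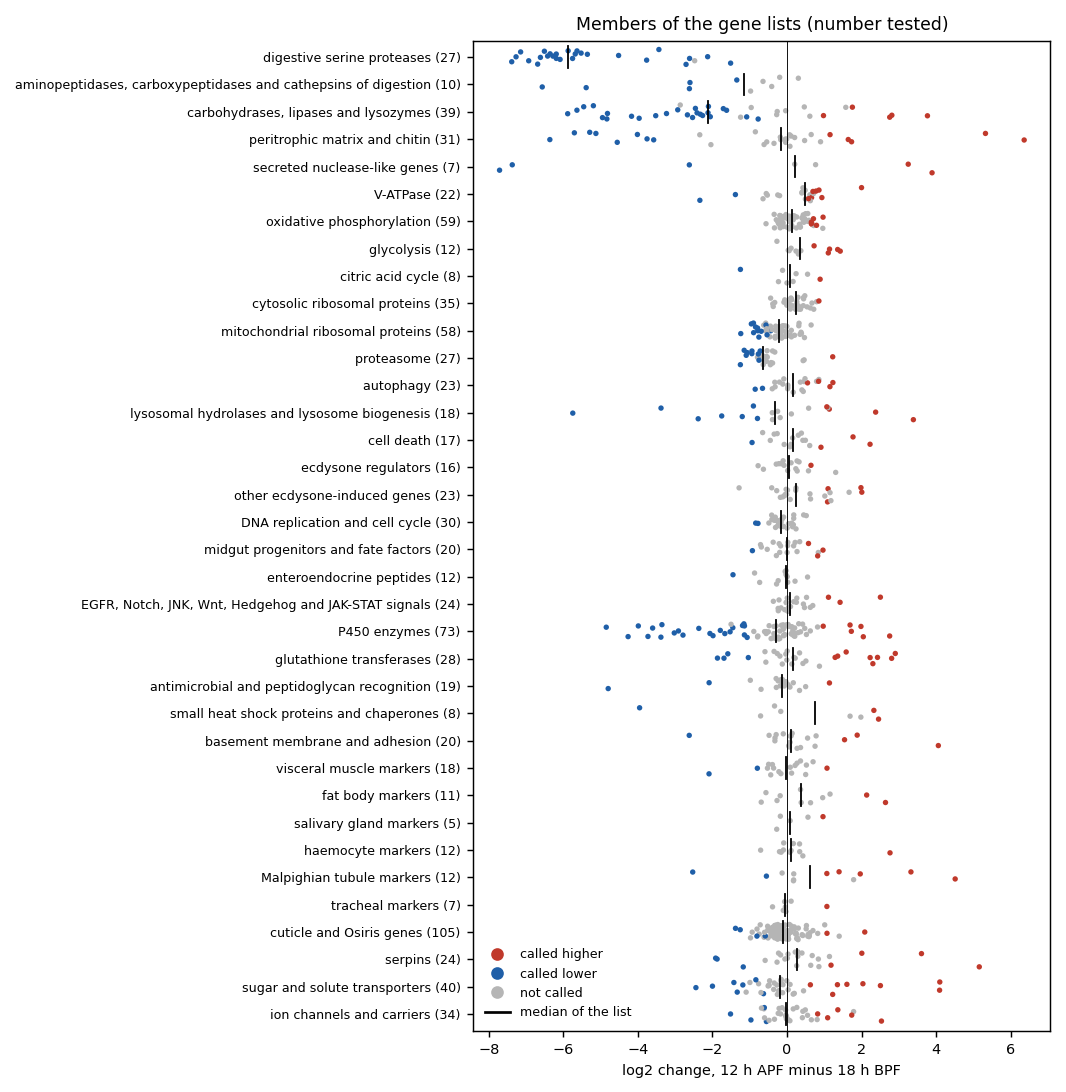
Change of every tested gene of the 36 lists on the log2 scale, 12 h APF minus 18 h BPF (horizontal axis), with 1 row for a list and its number of tested genes in brackets. Red points were called higher, blue points lower and grey points neither, and the black bar is the median of the list. All 27 digestive serine proteases lie left of 0, with a median of -5.87.

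Lysosomal genes and those of cell death were compared because larval midgut cells degrade their contents as they die. Of 18 tested genes in the lysosomal list 4 rose and 7 fell. Among the falls were Npc2c, Npc2d, Npc2f and LpR1, and where in the cell their products act was not measured here. CtsK1, a cysteine protease, stood at 1.64, 1.18 and 1.82 at 12 h APF, against -1.62, -2.15 and -1.75 at 18 h BPF, and rose by 3.39 ± 0.23 (10.5-fold, adjusted p = 8.64e-12). Npc1a, a sterol transporter of the lysosome membrane, rose by 2.37 ± 0.16, its partner Npc2a by 1.13 ± 0.28, and the thioesterase gene Ppt2 by 1.07 ± 0.20. Members of the Npc2 family, which bind sterols, moved apart: Npc2d (-5.75 ± 0.55), Npc2c (-3.38 ± 0.46) and Npc2f (-2.38 ± 0.40) fell. Npc2d stood at -4.15, -2.33 and -2.30 at 12 h APF, against 3.48, 2.44 and 2.54 at 18 h BPF, a loss like that of the digestive proteases. LpR1, a lipophorin receptor, fell by 1.75 ± 0.24, and the cathepsin genes cathD and CtsB fell by 1.20 and 0.90.

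Autophagy genes held 4 rises and 2 falls among 23 tested, where 9.6% of all genes were higher and 9.14% lower. Atg18a (1.23 ± 0.26, 2 arrays of each stage) and Atg13 (1.15 ± 0.32), of the early steps of autophagosome formation, rose, as did Atg2 (0.84 ± 0.22) and Atg5 (0.55 ± 0.16). ref(2)P, the adaptor that carries cargo into autophagosomes and is degraded with it, fell by 0.85 ± 0.22 and Atg16 by 0.66 ± 0.19. The calls of Atg5 and Atg16 were lost without single arrays: Atg5 without a (0.53) or b (0.47) of 18 h BPF or c of 12 h APF (0.43), and Atg16 without a of 18 h BPF (-0.36) or a of 12 h APF (-0.57). Without both a arrays the change of ref(2)P was -0.69 and was not called. Atg2 was not called with only the 6 arrays in the fit, and 1 of the other 2 probes for Atg16 was not called (-0.32).

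Among 17 cell death genes tested 3 rose and 1 fell, where 9.6% of all genes were higher and 9.14% lower. Dronc, the initiator caspase, stood at 0.17, 0.06 and 0.48 at 12 h APF, against -1.52, -2.26 and -0.82 at 18 h BPF. The stages did not overlap, although the larval arrays were scattered, and the rise was 1.77 ± 0.47 (adjusted p = 0.00709). It was not called without array b of 18 h BPF (1.40). Buffy, a Bcl-2 family member, averaged 1.08 ± 0.50 at 12 h APF and -1.14 ± 0.31 at 18 h BPF (SD, n = 3 each) and rose by 2.23 ± 0.26 (adjusted p = 1.66e-06 in limma). drpr, a receptor for engulfing dying cells, rose by 0.91 ± 0.31 and was not called without any one of the 12 h APF arrays (0.73 without b and 0.99 without c). AIF, a mitochondrial death factor, fell by 0.94 ± 0.29, on 2 arrays of each stage, and was not called with only the 6 arrays in the fit. The effector caspase gene Dcp-1 (-0.35 ± 0.25), the caspase gene Damm (-0.66 ± 0.23), the Bcl-2 gene Debcl (0.15 ± 0.23), the inhibitor gene Diap2 (0.08 ± 0.21), the death activator grim (0.38 ± 0.18) and the engulfment receptor gene crq (0.42 ± 0.20) did not pass the test. Damm was closest (adjusted p = 0.0509), and was called without b (-0.78) or c (-0.76) of 18 h BPF, without c of 12 h APF (-0.81) and where values on all 6 arrays were required. Its other probe gave -0.22 and was not called. Dronc had changed early, from -1.77 at puparium formation to 0.63 at 2 h APF, and was highest at 10 h APF (0.93). Dark, with too few values, and Drice, Diap1, rpr and hid were not analysed here.

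Of 16 regulators of the ecdysone response tested only Hr78, a nuclear receptor, was called (0.64 ± 0.18), and not without array a of 18 h BPF (0.56). The receptor genes EcR and usp changed by 0.27 ± 0.36 and -0.11 ± 0.26, and the early gene br by 0.24 ± 0.28. The nuclear receptors Hr3 (-0.63 ± 0.40), Hr39 (0.27 ± 0.27), Hr38 (-0.29 ± 0.26) and Eip78C (-0.16 ± 0.23) and the repressor Blimp-1 (0.32 ± 0.25) were not called either. Eip93F, which directs steroid-triggered cell death, stood at 0.15, -0.06 and -0.63 at 12 h APF, against -2.20, -1.09 and -1.17 at 18 h BPF. Its stages did not overlap, but the change of 1.30 ± 0.52 missed the threshold (adjusted p = 0.0875). It was called, at the same size, with only the 6 arrays in the fit. Kr-h1, a target of juvenile hormone, stood at -0.78, -0.52 and -0.36 at 12 h APF, against 0.32, 0.28 and 0.07 at 18 h BPF (-0.78 ± 0.28, adjusted p = 0.0585), and was called with only the 6 arrays in the fit and where values on all 6 were required. ftz-f1, the competence factor of the prepupal stage, gave 0.57 ± 0.23 (adjusted p = 0.0994), 1 of its other 2 probes gave 1.36 and was called (adjusted p = 0.00661), and the last gave 0.12. The mean over its probes was called (0.70). The ends of the course miss the peaks of these genes: by stage means EcR was highest at 4 h BPF (1.15), Eip93F at puparium formation (0.76), Hr3 at 2 h APF (0.42) and ftz-f1 at 8 h APF (1.06). Hr4, Eip74EF and Eip75B were not analysed here.

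Genes further downstream in the ecdysone response included 4 of 23 that rose and none that fell. Over all genes 18.7% were called, 9.6% of them as higher and 9.14% as lower among all tested. Cth, once known as the ecdysone-induced gene Eip55E, stood at 1.30, 0.94 and 1.31 at 12 h APF, against -1.07, -0.88 and -0.52 at 18 h BPF (2.00 ± 0.17, adjusted p = 1.62e-09). Cyp18a1, which inactivates ecdysone, rose by 1.98 ± 0.41, with 0.85, 0.07 and 0.06 at 12 h APF, against -3.13, -0.62 and -1.21 at 18 h BPF. Array a of 18 h BPF stood apart here, and without it the change was 1.24. Without both a arrays it was 0.98 and was not called. ImpL2, a binding protein for insulin-like peptides, rose by 1.10 ± 0.25 and Eip63E, a cyclin-dependent kinase, by 1.09 ± 0.25.

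Energy and protein metabolism moved less than digestion. Of 12 glycolytic genes 5 rose and none fell. Pfk, the committed step, stood at 0.60, 0.62 and 0.27 at 12 h APF, against -1.27, -0.77 and -0.75 at 18 h BPF (1.43 ± 0.22, adjusted p = 1.91e-05), and Hex-A, a hexokinase, rose by 1.36 ± 0.35, Pglym78 by 1.14 ± 0.25 and Tpi by 1.11 ± 0.32. Tpi was not called with only the 6 arrays in the fit. Of 59 oxidative phosphorylation genes 7 rose and none fell, near the background of 9.6% higher. The largest were UQCR-Q of complex III (0.96 ± 0.25), which was not called without array a of 18 h BPF (0.70), and ATPsynbeta of the ATP synthase (0.79 ± 0.20), whose other probe was not called (0.23). ATPsynbeta was not called after quantile normalization (0.67) or without both a arrays (0.55). In the citric acid cycle Ogdh fell by 1.25 ± 0.23 and Idh3g rose by 0.89 ± 0.23, with the other 6 genes not called. Idh3g was not called without array a of 18 h BPF (0.66).

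The V-ATPase, the proton pump of the gut lumen and of lysosomes, showed opposite changes in variants of 1 subunit. Of 22 genes tested 7 rose and 2 fell, and the extremes on both sides encode forms of the a subunit of the membrane sector. Vha100-5 stood at -1.10, -0.87 and -0.99 at 12 h APF, against 2.03, 0.91 and 1.12 at 18 h BPF (-2.34 ± 0.27, adjusted p = 1.36e-07), and Vha100-4 fell by 1.39 ± 0.27. Vha100-2 stood at 0.73, 1.37 and 1.21 at 12 h APF, against -0.75, -1.20 and -0.73 at 18 h BPF (2.00 ± 0.43), and its other probe gave 0.99, which was not called. The other called members rose by less than 1: Vha26 by 0.93 ± 0.29, Vha44 by 0.86 ± 0.23 and VhaAC45 by 0.78 ± 0.19. Vha26 was not called without a (0.97) or b (0.88) of 18 h BPF or a (0.90) or c (0.85) of 12 h APF, and VhaAC45 not without both a arrays (0.67). Vha44, with 2 arrays at each stage, was not called after quantile normalization (0.70), with arrays scaled to the same spread (0.71) or with only the 6 arrays in the fit, and 1 of its other 2 probes was not called (0.75).

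Of 27 proteasome genes 10 fell and 1 rose, where 9.14% of all genes were lower. Prosalpha4, of the catalytic core, stood at -0.92, -0.86 and -0.51 at 12 h APF, against 0.60, 0.15 and 0.25 at 18 h BPF, and fell by 1.10 ± 0.18 (adjusted p = 4.26e-05). Prosalpha7 (-1.25 ± 0.22) and the regulatory subunits Rpn11 (-1.15 ± 0.22) and Rpn3 (-1.07 ± 0.25) fell by similar amounts. Prosalpha6, with 0.55, 0.16 and 0.69 at 12 h APF, against -0.53, -0.96 and -0.78 at 18 h BPF, rose by 1.22 ± 0.22. The net fall hides a rise in between: the median member stood at -0.20 at 18 h BPF, 0.88 at puparium formation and -0.76 at 12 h APF. The count of 10 depended on the arrays. It was 5 without array a and 6 without array c of 18 h BPF, 3 without both a arrays, where Rpn3 was at -0.70, and 5 with only these 6 arrays in the fit.

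Ribosomal genes of the 2 compartments differed in count. Of 58 mitochondrial ribosomal genes 12 fell and none rose, with a median of -0.21. The largest falls were those of mRpL10 (-1.24 ± 0.23), mRpS18B (-0.96 ± 0.25), mRpS35 (-0.90 ± 0.22) and mRpS26 (-0.90 ± 0.20). Of 35 cytosolic ribosomal genes RpS5b, a variant of the small subunit, was called (0.85 ± 0.24), and not without array b of 18 h BPF (0.68) or array a of 12 h APF (0.73). Without array a of 12 h APF 6 mitochondrial genes fell, with mRpS35 at -0.67 and not called, and 6 fell without both a arrays.

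Cytochrome P450 enzymes, which oxidize hormones and foreign compounds, fell more often than they rose: 22 of 73 tested were lower and 6 higher. Cyp6w1 stood at -2.41, -1.92 and -2.28 at 12 h APF, against 2.83, 2.34 and 2.77 at 18 h BPF. The arrays of each stage agreed closely, and the gene fell by 4.85 ± 0.62 on the log2 scale (28.8-fold, adjusted p = 1.02e-06). Cyp4ac3 (-4.26 ± 0.42), Cyp12e1 (-3.99 ± 0.32) and Cyp6a21 (-3.73 ± 0.53) followed. Cyp28d1 stood at 2.38, 0.80 and 2.20 at 12 h APF, against -1.40, -0.81 and -0.66 at 18 h BPF, and rose by 2.75 ± 0.39. Cyp4e1 rose by 2.04 ± 0.39 and Cyp9b1 by 1.72 ± 0.28. The median P450 gene changed by only -0.29, so the group held many genes without a call.

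Glutathione transferases, which conjugate toxic compounds, leaned the other way, with 8 of 28 higher and 4 lower. GstT3 stood at 1.53, 0.70 and 0.78 at 12 h APF, against -2.19, -1.70 and -1.51 at 18 h BPF (2.80 ± 0.24, adjusted p = 3.63e-10). GstE3 rose by 2.90 ± 0.33, GstD1 by 2.42 ± 0.29 and GstE1 by 2.30 ± 0.30. Of 11 GstD genes 5 rose and none fell. GstE10 (-1.87 ± 0.35), GstO3 (-1.69 ± 0.27), GstT4 (-1.59 ± 0.36) and Mgstl (-1.04 ± 0.29) fell, and Mgstl was not called after quantile normalization (-0.78). The difference between the P450 and transferase groups was not tested.

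Of 19 genes of antimicrobial defence and peptidoglycan recognition 2 fell and 1 rose, where 9.14% of all genes were lower and 9.6% higher. PGRP-SC2, an amidase that degrades bacterial peptidoglycan in the gut, stood at -3.02, -2.82 and -2.95 at 12 h APF, against 2.53, 1.45 and 1.62 at 18 h BPF, and fell by 4.80 ± 0.41 (27.8-fold). pirk, a brake on the Imd pathway, fell by 2.09 ± 0.25, and the receptor gene PGRP-LF rose by 1.14 ± 0.25. Among 8 heat shock genes l(2)efl, a small heat shock protein, stood at -1.57, -0.96 and -2.22 at 12 h APF, against 2.11, 2.73 and 2.27 at 18 h BPF (-3.95 ± 0.36). Hsp27 moved the opposite way, at 1.37, 0.96 and 1.52 at 12 h APF, against -1.76, -1.29 and -0.08 at 18 h BPF (2.33 ± 0.34). CG4456, listed with them as Hsp67Bb, rose by 2.45 ± 0.42 and by 1.58 without both a arrays.

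Solute carriers went both ways. Of 40 tested 8 rose and 7 fell. yin, an oligopeptide transporter, rose by 4.10 ± 0.69. CG8249, of the sugar transporter family, stood at 0.73, 0.43 and 0.60 at 12 h APF, against -4.08, -3.64 and -2.80 at 18 h BPF, and rose by 4.09 ± 0.24 (adjusted p = 2.52e-13). MFS12 (2.50 ± 0.45), a member of the major facilitator family, and Zip89B (2.03 ± 0.30), a zinc transporter, rose as well. NAAT1, which takes up essential amino acids from the lumen, stood at -0.35 and -0.23 on arrays b and c of 12 h APF, against 2.49, 1.90 and 2.08 at 18 h BPF, and fell by 2.44 ± 0.33. Zip99C, a metal transporter of the secretory pathway, fell by 2.00 ± 0.26, the amino acid transporter gene JhI-21 by 1.43 ± 0.22 and MFS3 by 1.34 ± 0.26.

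Of 34 ion channel and carrier genes 5 rose and 4 fell, where 9.6% of all genes were higher and 9.14% lower. Galphaf, a G protein subunit listed with them, rose by 2.53 ± 0.30, nrv1, a subunit of the sodium pump, by 1.73 ± 0.23, NKCC, a cotransporter of sodium, potassium and chloride, by 1.36 ± 0.43 and CAH2, a carbonic anhydrase, by 1.09 ± 0.23. Ndae1, an exchanger of anions and sodium, fell by 1.52 ± 0.36 and the proton exchanger gene Nhe3 by 0.97 ± 0.24, and neither was called without both a arrays (-1.06 and -0.73). Among 24 serpins, inhibitors of serine proteases, 4 rose and 3 fell. Spn28Dc (3.60 ± 0.45), Spn88Ea (2.00 ± 0.26) and Spn77Bb (1.18 ± 0.30) rose with Spn27A, the other probe for Spn77Bb not being called (0.97), and Spn55B (-1.92 ± 0.24), Spn42Dc (-1.88 ± 0.29) and Spn42Da (-1.17 ± 0.24) fell.

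Genes of the progenitors and of the new epithelium showed small changes. Of 20 progenitor and fate factors 3 rose and 1 fell, near the 18.7% of all genes called in either direction. esg, the marker of midgut progenitors, stood at -0.49, -0.80 and -0.47 at 12 h APF, against -0.69 and -0.52 on arrays a and c of 18 h BPF, and did not pass the test (0.02 ± 0.30). Its stage means were higher in between, up to 0.45 at 4 h BPF. Sox21a, a factor of progenitor differentiation, stood at -1.01 and -0.98 on arrays a and b of 12 h APF, against 0.05, -0.17 and -0.07 at 18 h BPF, and fell by 0.93 ± 0.23. The enterocyte factors GATAe (-0.71 ± 0.27) and cad (-0.69 ± 0.25) were not called (adjusted p = 0.0718 and 0.0607), though cad was with only the 6 arrays in the fit. nub, tap and fkh rose by 0.82 ± 0.27, 0.57 ± 0.18 and 0.96 ± 0.34, and all these calls were lost when single arrays were left out: nub without a (0.77) or b (0.70) of 18 h BPF or a of 12 h APF (0.60), tap without a (0.47) or b (0.54) of 18 h BPF or b (0.48) or c (0.54) of 12 h APF, and fkh without a (0.93) or b (0.89) of 18 h BPF or a, b or c of 12 h APF (0.98, 1.05 and 0.86).

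Of 24 signalling genes 3 rose and none fell, near the background of 9.6% higher. ci, the transcription factor of the Hedgehog pathway, stood at 1.04, 0.16 and 0.81 at 12 h APF, against -3.28, -1.15 and -1.08 at 18 h BPF. It rose by 2.50 ± 0.35 (adjusted p = 2.84e-06), and by 1.60 without both a arrays. spi, a ligand of the EGF receptor, stood at 0.04, -0.05 and 0.23 at 12 h APF, against -0.93 and -1.15 on arrays a and c of 18 h BPF (1.11 ± 0.22), while the receptor gene Egfr gave 0.62 ± 0.41 and was not called. puc, a phosphatase gene switched on by JNK signals, rose by 1.42 ± 0.29 on 2 arrays of each stage. Of 12 enteroendocrine peptide genes CCHa2 fell by 1.45 ± 0.34, and it was not called without both a arrays (-1.15). Of 30 replication and cell cycle genes Orc5 and RnrL fell by 0.84 ± 0.26 and 0.78 ± 0.21, and none rose. Orc5 was not called without array b of 18 h BPF (-0.41) or b of 12 h APF (-0.74), and RnrL not without b of 12 h APF (-0.54).

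In the basement membrane and adhesion list 3 of 20 genes rose and 1 fell, near the 18.7% of all genes called. SPARC, a collagen-binding protein of basement membranes, stood at 2.18, 0.96 and 2.24 at 12 h APF, against -2.82, -2.19 and -1.78 at 18 h BPF, and rose by 4.06 ± 0.31 (16.6-fold, adjusted p = 6.71e-11). trol, the perlecan gene, rose by 1.88 ± 0.29 with its arrays at 0.75, 0.56 and 0.73 at 12 h APF, against -1.28, -1.23 and -1.09 at 18 h BPF. shg, the E-cadherin gene, rose by 1.54 ± 0.52 and was not called without b (1.30) or c (1.51) of 18 h BPF or b (1.16) or c (1.47) of 12 h APF. Itgbn, an integrin beta subunit of the midgut, fell by 2.62 ± 0.28. The collagen gene Col4a1 gave 0.36 ± 0.58.

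Dissected guts can carry other tissues, and the marker lists for them were read for that reason. The ratios compare a stage with a midgut pool and give no level, so the presence of such tissue was not measured, and its part in the results was not tested. Of 12 Malpighian tubule genes 5 rose and 2 fell, and the median member stood at 0.42 at 12 h APF and -0.07 at 18 h BPF. SLC22A, an organic ion carrier, stood at 3.44, 2.52 and 3.15 at 12 h APF, against -2.12, -1.58 and -0.70 at 18 h BPF (4.51 ± 0.46), ry, xanthine dehydrogenase, rose by 3.32 ± 0.34 and the zinc transporter gene ZnT35C by 1.96 ± 0.42. Fst fell by 2.53 ± 0.34. NaPi-T rose by 1.39 ± 0.43, on the strength of arrays a and c of 12 h APF, and was not called without c (0.75), without a (1.39) or without a, b or c of 18 h BPF (1.39, 1.39 and 1.40). Irk1 fell by 0.55 ± 0.18 and was not called without a (-0.52) or c (-0.54) of 18 h BPF or a (-0.48) or b (-0.56) of 12 h APF.

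The other tissue lists held fewer calls in number, and 18.7% of all genes were called in either direction. Of 18 muscle genes Mlc2 fell by 2.09 ± 0.30 and up by 0.80 ± 0.25, and Msp300 rose by 1.07 ± 0.36, with medians of 0.01 at 12 h APF and 0.15 at 18 h BPF. Msp300 was not called without a of 18 h BPF (0.33) or b or c of 12 h APF (0.97 and 1.06), and up not without a or b of 18 h BPF (-0.67 and -0.75) or a of 12 h APF (-0.64). The other probe for Msp300 was not called (0.24), nor was 1 of the other 2 for up (-0.44). Of 11 fat body genes Idgf4 rose by 2.64 ± 0.27 and Obp99b by 2.13 ± 0.68, and Obp99b was not called without a of 18 h BPF (1.28) or a or c of 12 h APF (1.90 and 2.14), while the larval serum protein gene Lsp2 gave 1.15 and was not called. Of 12 haemocyte genes Sr-CI, a scavenger receptor, rose by 2.76 ± 0.53, and by 1.61 without a of 18 h BPF, whereas Hml and NimC1 gave -0.09 and -0.10. The glue protein genes of the salivary gland, Sgs1, Sgs5 and Sgs5bis, gave -0.18, 0.08 and -0.28, and its factor sage 0.56, with no call among the 4; fkh, described above, was the other member tested. Of 7 tracheal genes btl rose by 1.07 ± 0.29 and was not called without a of 18 h BPF (0.72). Of 105 cuticle and Osiris genes 2 rose and 4 fell, against a background of 18.7% called.

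The called probes did not all move at one time. Where each stage gave at least 2 values, 1020 higher probes had median ratios of -0.69 at 18 h BPF, -0.33 at puparium formation, 0.07 at 2 h APF, 0.26 at 8 h APF and 0.57 at 12 h APF, and 888 lower probes had 0.67, 0.05, -0.08, -0.46 and -0.75. The first stage was the lowest for 45.7% of the higher probes, and 12 h APF the highest for 40.1%. For the lower probes 18 h BPF was the highest stage in 50.2% and 12 h APF the lowest in 38.6%. Both stages entered the choice of these probes, so their place at the ends is a description and was not tested.

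**Figure D4:**
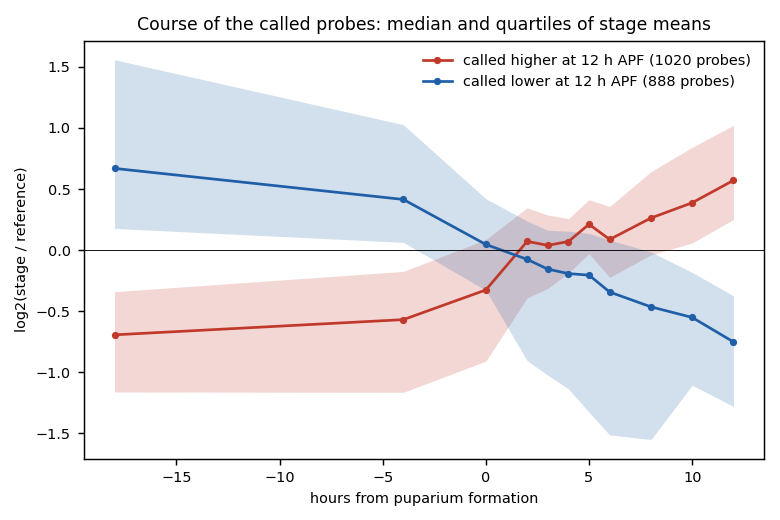
Median (line) and quartiles (band) of the stage means, as log2 ratios to the midgut pool, against hours from puparium formation for the probes called higher (red, 1020 probes) and lower (blue, 888 probes) at 12 h APF. The red median lies below the blue one at puparium formation (-0.33 and 0.05) and above it at 2 h APF (0.07 and -0.08).

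A net comparison misses genes that left and came back. Of the 7257 probes that every stage measured at least 2 times, 4040 (55.7%) varied over the 11 stages by the moderated F test (adjusted p under 0.05). Of the 3137 genes past that test whose net change was tested, 1295 had a net change within 0.5, and 142 of these spanned at least 4-fold between stages. The 8 with the widest span fell into 2 shapes, apart from CG30265. Cyp12a4, a mitochondrial P450, averaged 1.11 at 12 h APF and 1.20 at 18 h BPF, with a net change of -0.09 ± 0.40, yet stood at -4.59 at 8 h APF. Fatp3, a fatty acid transporter gene, CG11162 and CG4362 were likewise high at both ends and reached -2.93, -3.08 and -3.86 in between. Fer3, a basic helix-loop-helix factor, averaged -2.11 at 12 h APF and -2.38 at 18 h BPF and stood at 1.61 at 8 h APF. CG11786 and Col4a1, a type IV collagen chain, were also low at both ends and highest at 8 h APF, at 1.73 and 1.96. CG30265 peaked at 10 h APF (3.06) on the probe used, and its other probe was called lower (-1.70). Cyp12a4 and Fatp3 were chosen for a net change within 0.5 and Jon25Biii for its large fall. Their places at 12 h APF against 18 h BPF therefore follow from the choice and were not tested. The plot of single courses shows the stages in between.

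**Figure D5:**
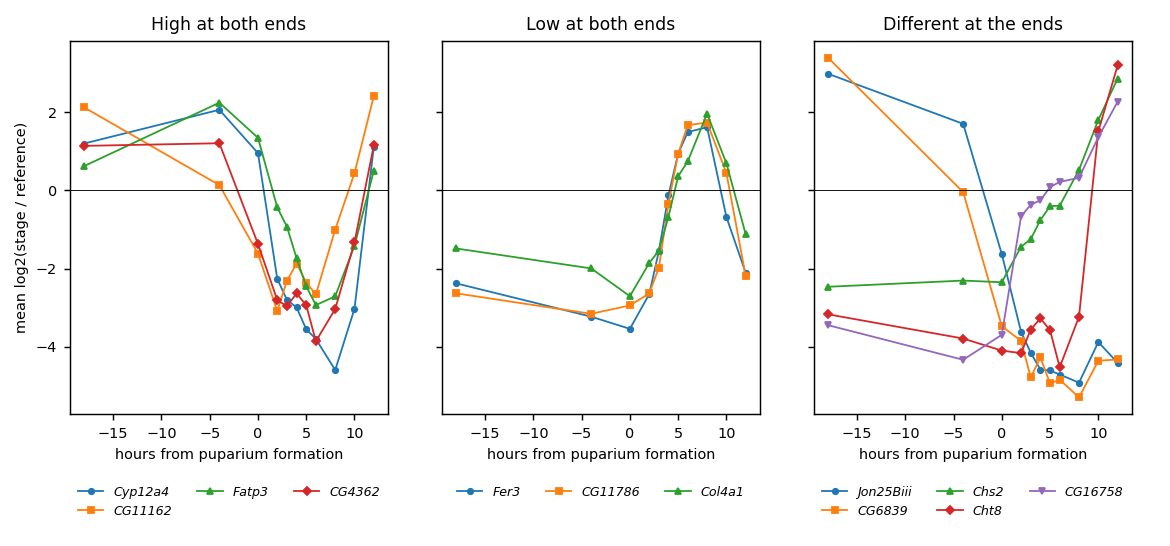
Stage means as log2 ratios to the midgut pool against hours from puparium formation for 7 of the 8 genes with the widest excursions (left and middle) and for 5 genes with large net changes (right). Cyp12a4 falls to -4.59 at 8 h APF and is back at 1.11 at 12 h APF, whereas Jon25Biii and CG6839 stay low.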

How the data were processed

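RNA of Canton S midguts at 11 stages, 3 samples each, was amplified by in vitro transcription and hybridized in Cy5 against a Cy3 midgut pool on 33 arrays, per the labels' protocols. The deposited values are log2 ratios. How the authors scanned, filtered and normalized the arrays is not stated in the labels or file headers. The logarithm's base and sign were worked out from the values: mixing the stages as in the pool should give ratios near 0, and the log2 of the mixed ratios had an SD of 0.117 as stage over pool in base 2, 0.509 reversed, and 0.204 and 0.792 in natural logarithms (7257 probes). Array intensities were not used. Of 14064 probes with values 10828 matched 1 gene (9905 genes), 227 several and 3009 none in the platform annotation; current names came from RefSeq.

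One linear model with 11 stage means was fitted to the 33 arrays in limma 3.58.1 (R 4.3.3) on values as deposited, with Benjamini-Hochberg adjustment over all 12704 probes with at least 2 values at both stages; 1360 probes were not tested. A gene was represented by its probe with the most values. Same-letter replicates were checked for pairing (correlations of deviations -0.116, -0.00940 and 0.00341) and treated as unpaired. Named are the 12 largest rises and the 12 largest falls with separate arrays, ranked on that probe, at most 4 members of a list that were called in each direction, regulators listed by name and the 8 widest excursions; not every such gene is described, and other list members were picked after their values were seen. The comparison, members and lists were chosen with earlier results of these data known, and 2 lists were corrected after values were seen (cyclophilins removed from the P450 list, and GstD4 from the peptidases). Alternatives covered centring, normalization, filters, the arrays fitted, a replicate block and a fold threshold of 1.5.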

Additional observations from a re-analysis of the deposited data

How the results depend on the processing

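Of 168 called genes picked by the rule for naming genes, 123 kept their call under every alternative with a test other than the fold threshold, 45 lost it under at least 1, and none reversed; 7 of the 33 genes without a call gained one. Called probes numbered 1554 to 1811 (845 to 963 higher, 709 to 863 lower) when single arrays were left out. With a tested fold of 1.5 the counts were 830, with 425 higher and 405 lower, 14 lower P450 genes, no lower mitochondrial ribosomal gene (0) and 1 lower proteasome gene. Without both a arrays, chosen after seeing the data, 1321 probes were called (726 higher, 595 lower), with 13 lower carbohydrase, lipase and lysozyme genes, 6 mitochondrial ribosomal and 3 proteasome genes. Values on all 6 arrays left 9 lower carbohydrase, lipase and lysozyme genes. With only the 6 arrays fitted 1696 probes were called (898 higher, 798 lower), and 4 mitochondrial ribosomal and 5 proteasome genes were lower. With arrays scaled to the same spread, also chosen after seeing the data, 5 and 6 such genes were lower. Leaving out single arrays gave 22 to 25 lower serine proteases, 15 to 21 lower carbohydrase, lipase and lysozyme genes, 6 to 12 mitochondrial ribosomal, 5 to 12 proteasome and 17 to 20 P450 genes. The causes were not tested.

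A replicate block gave 2401 called probes (1268 higher, 1133 lower) over 33 arrays and 1550 (855 higher, 695 lower) over 6 arrays, where 5 mitochondrial ribosomal and 5 proteasome genes were lower; the letters only number the samples. Each stage had 3 arrays, and both a arrays had the widest spread of values.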

Other observations

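Some gene families outside the lists were picked after the values of many families were seen. Others, such as the 13 dpr genes tested, held no call. Over all genes 9.6% were higher and 9.14% lower. Of 28 UDP-glycosyltransferase genes, which conjugate small compounds, 6 rose and 7 fell, from Ugt303A1 (-3.88) to Ugt37D1 (2.69). Of 12 alkaline phosphatase genes 3 fell and none rose, with Alp6 at -5.87. Of 8 genes of the chaperonin CCT 4 fell and none rose, and of 17 neprilysin-like peptidase genes 3 rose and none fell.

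In the RefSeq gene order, a minority of called genes were followed by a gene called the same way, at more than the share over all genes. The next tested gene was also lower for 166 of 827 lower genes (20.1%), where 9.16% of the 9032 placed genes were lower, and also higher for 149 of 867 higher genes (17.2%), where 9.60% were. There were 11 runs of at least 4 neighbouring lower genes (64 genes, the longest of 9) and 6 runs of higher genes (25 genes, the longest of 5). Some runs hold families of near-identical copies whose probes may share signal, and their part in these shares was not tested.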
